A study of Mus musculus with 32 samples.

Results

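Synovial sarcoma is a soft tissue cancer defined in patients by a fusion of the SS18 gene with an SSX gene. SS18 is a subunit of the BAF chromatin remodelling complexes, which move and evict nucleosomes, and the fusion protein is known to alter where these complexes act. Myf5 is a transcription factor of the muscle lineage, switched on early in muscle progenitors. The question put to the data here was how the transcripts of mouse synovial sarcomas differed from those of control tissue. It rests on 12 of the 32 RNA sequencing libraries of a mouse sarcoma series, chosen by their labels alone: 6 whose source is synovial sarcoma and 6 whose source is Control.

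The 6 tumour libraries carry titles that begin with Myf5-SSM2/PLUC and end in 37-4, 37-7, 37-8, 39-5, 39-9 and 44, and they are called by those endings here. The 6 control libraries are titled Chest1 to Chest5 and Bone3. The labels spell out neither the alleles behind SSM2 and PLUC nor the tissue taken for a control. They give no strain, age, sex, treatment, time, batch or animal, so what the tumour and control mice shared, and which cells could have formed the tumours, are not stated beyond the title. The remaining 20 libraries, 13 clear cell sarcomas and 7 osteosarcomas, entered the same model and serve below as a second yardstick. By their labels these yardstick groups are mixed. The sources of the clear cell sarcomas name Rosa26CreER, TATCre, Prx1CreERT2 or Bmi1IRESCreERT2, and all their titles carry EA1. The osteosarcoma titles begin with Prx1Cre or Col1Cre, and all carry Rb1p53. The labels do not spell out the alleles behind EA1 and Rb1p53. Libraries of a tumour type were fitted together whatever their Cre label, and differences between these labels were not tested. Nothing says that the 6 libraries of a group came from separate animals, and 3 tumours share the number 37 and 2 the number 39. Bone3 and Chest3 share the number 3. What the p-values measure is thus the spread from library to library, pooled over the 4 tissue types, which may be technical in part. Counts of calls are also given with the synovial sarcoma libraries of one number averaged, which leaves 3 tumour values. No other libraries were averaged, so Bone3 and Chest3 stayed apart.

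Expression was deposited as RPKM, a read count scaled to the length of the transcript and to the mapped reads of the library, for 55419 transcripts named by UCSC identifiers. No gene names were paired with these identifiers in the files used here. Lists of muscle, synovial sarcoma and cell type genes were therefore not applied, the labelled tissues were not checked against marker genes, and results are given for transcripts by identifier and by group. Several identifiers can belong to 1 gene and overlap, and the labels do not say how the counting shared their reads. In bulk tissue, fewer cells of a type and less RNA per cell cannot be told apart. The steps between the RPKM values of a transcript gave back whole reads, and with them the depth of each library: 10300196 ± 1718582 reads in the tumours (SD, n = 6, range 8730013 to 13060617) and 10327105 ± 1022252 in the controls (SD, n = 6, range 9184089 to 12048008). Depth was thus nearly the same in both groups.

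Synovial sarcomas and controls differed in a large share of their transcripts. A transcript was tested if its RPKM reached 1 in 6 or more of the 32 libraries, which 15230 did. Of these, 6579 (43.2%) differed at a Benjamini-Hochberg adjusted p under 0.05 in limma on log2(RPKM + 1). Of these, 5563 were higher in the tumours (36.5% of all tested) and 1016 were lower (6.67%). A log2 change of 1 or more, a doubling on that scale, was reached by 5113 calls (33.6%), 4253 higher and 860 lower. On the deposited scale large changes were also more numerous upwards: 593 transcripts rose at least 8-fold and 194 fell at least 8-fold, and 82 rose and 28 fell at least 32-fold. The median size of a change was 1.46 on the log2 scale among the higher calls, with a median SE of 0.33, and 1.75 among the lower calls, with a median SE of 0.48.

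The 6 tumours and the 6 controls did not overlap at all in 4689 transcripts. In 4059 of them (26.7% of all tested) every tumour lay above every control, and in 630 (4.14%) every tumour lay below. Among the higher calls 3857, or 69.3%, had no overlap, and among the lower calls 521, or 51.3%. Calls in the downward direction thus rested more often on group means with overlapping libraries.

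The surplus of higher over lower calls moved with the scaling of the libraries. On the deposited scale the median log2 change of all tested transcripts was 0.61, so that the typical transcript had a larger share of the mapped reads in the tumours. When the libraries were rescaled so that the median transcript had the same level in each (median ratio scaling), that median fell to 0.07 and 4962 transcripts were called, 2639 higher and 2323 lower. After quantile normalization, which gives all libraries the same distribution of values, 5232 were called, 2592 higher and 2640 lower. Calls of at least 2-fold then numbered 2047 higher and 1783 lower with median ratio scaling, and 1989 higher and 1960 lower after quantile normalization. Transcripts with no overlap numbered 2080 higher and 1682 lower with median ratio scaling, and 1856 higher and 1674 lower after quantile normalization. The surplus of higher transcripts was smaller in each of these counts than on the deposited scale. The share of calls that were higher was 84.6% on the deposited scale, 53.2% with median ratio scaling and 49.5% after quantile normalization.

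The individual calls almost never changed sign. Of the 5563 higher calls, 2171 (39%) were called higher under all 3 scalings, with a median change of 2.32 on the deposited log2 scale. Of the 1016 lower calls, 1010 (99.4%) were called lower under all 3. A single higher call was called lower with median ratio scaling, and none after quantile normalization. No lower call was called higher under either. With the libraries of numbers 37 and 39 averaged as well, 2111 higher and 511 lower calls passed in every one of these fits.

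**Figure D1:**
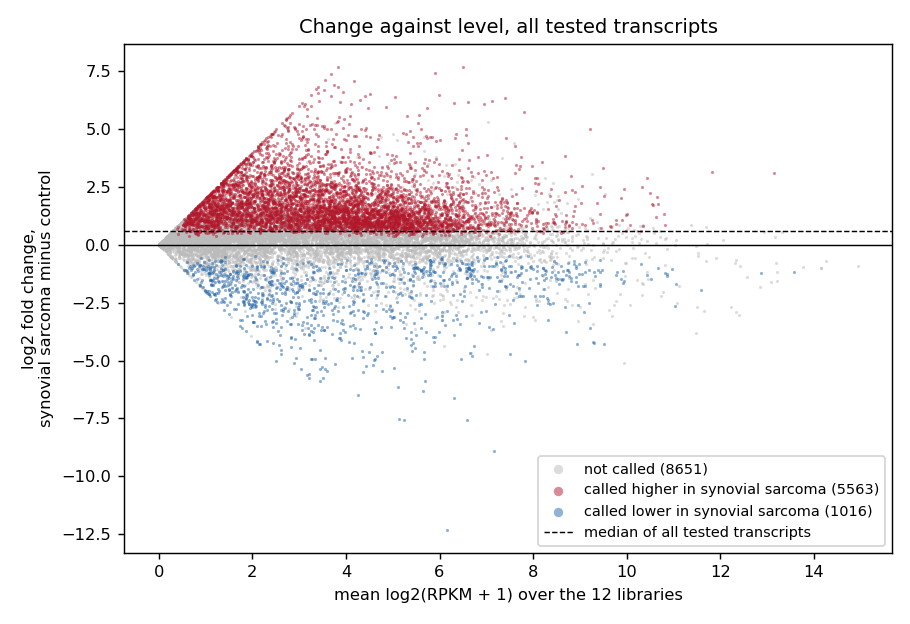
Log2 fold change, synovial sarcoma minus control, on the y axis against the mean log2(RPKM + 1) of the 12 libraries on the x axis, 1 point per tested transcript. Red points are the 5563 transcripts called higher in the tumours, blue points the 1016 called lower and grey points those not called; the dashed line is the median of all tested transcripts, 0.61, on the deposited scale.

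The change also depended on how abundant a transcript was. Transcripts with a mean log2(RPKM + 1) between 4 and 5 over the 12 libraries were higher in the tumours most often, with 48.1% of 2023 called higher and 5.78% called lower, and their median log2 change was 0.78. Among the 460 transcripts above 8, 20.7% were called higher and 21.3% lower, with a median change of -0.02. The upward shift was therefore absent among the most abundant transcripts. Under median ratio scaling the class from 2 to 3 was called higher most often, at 22.6% of 2523, against 18.6% in the class from 4 to 5. The median change was then 0.05 in the class from 4 to 5 and -0.78 in the class above 8, where 36.5% were called lower and 6.52% higher. The faintest class, below 1, held 2039 transcripts with a median of 5.92 reads per library, and 13.0% of them were called higher and 1.77% lower on the deposited scale.

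Length and read number moved with the calls too. Among the 1174 transcripts of at least 4000 bases, with a median of 612 reads, 52.6% were called higher and 5.03% lower. Among the 1603 transcripts under 100 bases, with a median of 16.5 reads, 21.7% were called higher and 5.93% lower. The median log2 changes of these length classes were 0.82 and 0.71. Between these classes, from 100 to 4000 bases, the median changes ran from 0.49 to 0.68.

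Among transcripts with recovered reads, the reads were concentrated in fewer transcripts in the controls. The 100 most abundant of these in each library took 29.7% ± 3.09 of its reads in the controls (SD, n = 6) and 19.9% ± 3.19 in the tumours (SD, n = 6). The controls ranged from 26.4% in Chest1 to 33.9% in Chest4 and the tumours from 15.4% in 39-5 to 23.7% in 37-4, so the groups did not overlap. The difference was -9.76 percentage points (exact two-sided permutation test, p = 0.00216, the smallest that 6 against 6 can give; Benjamini-Hochberg p = 0.00433 over 2 such tests). With the numbers 37 and 39 averaged it was -9.83 points (exact permutation p = 0.0119). This measure is a share within each library and does not depend on the scaling between libraries. The reads of all transcripts with recovered reads were 74.5% to 89.5% of the depth in the tumours and 72.1% to 76.5% in the controls, and their part in the difference was not tested. Transcripts without recovered reads could not be ranked, among them uc007ams.1 with a mean log2(RPKM + 1) of 14.2.

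The tumours also had more transcripts above 0. They numbered 14469 ± 617 per tumour (SD, n = 6, 13763 to 15576) and 13386 ± 805 per control (SD, n = 6, 11963 to 14048), a difference of 1084 (exact two-sided permutation test, p = 0.013, also after adjustment over the 2 tests). The groups overlapped. With the numbers 37 and 39 averaged the difference was 1134 and no longer passed (exact permutation p = 0.0595).

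**Figure D2:**
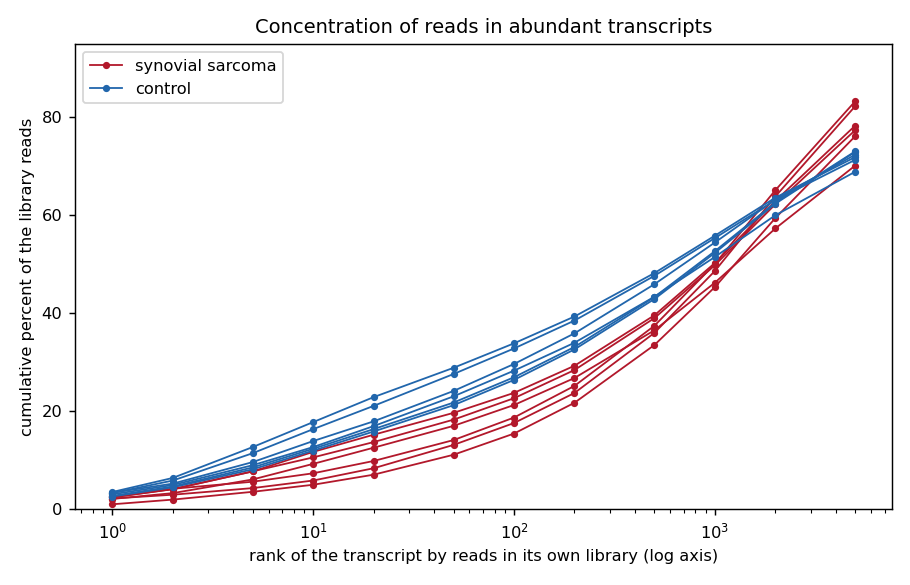
Cumulative percent of a library's reads (y axis) taken by its most abundant transcripts, up to the rank on the x axis (log axis), 1 line per library, red for the 6 synovial sarcomas and blue for the 6 controls. Only transcripts with recovered reads are ranked. At rank 100 the tumours lie between 15.4% and 23.7% and the controls between 26.4% and 33.9%.

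The most abundant transcripts of the controls took a smaller share of the reads in each of the 6 tumours than in any control. The 100 most abundant transcripts of the controls, by mean share among those with recovered reads, took 25.8% to 33.3% of the reads in the 6 controls. In the tumours they took 4.2% in 37-7, 4.84% in 39-5, 6.4% in 39-9, 15% in 37-8, 16.7% in 44 and 17.6% in 37-4. The tumours therefore fell into a lower trio and an upper trio that cut across the title numbers. Of the 100, 53 were called lower and 2 higher, and 97 had a lower mean, with a median log2 change of -1.86. Their median SE was 0.89, against 0.39 over all tested transcripts. Since the 100 were picked for their level in these controls, these counts describe them and test nothing.

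The converse list behaved differently. The 100 most abundant transcripts of the tumours, again among those with recovered reads, shared 32 members with those of the controls. Together they took 14.2% to 23.1% of the reads in the tumours and 19.8% to 26.7% in the controls, so as a sum they did not take a larger share in the tumours. One by one, 58 were called higher and 6 lower, where 36.5% and 6.67% of all tested transcripts were, and 29 of the 100 had a lower mean in the tumours. These 100 were picked for their level in these tumours, so the counts are again a description.

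The transcript with the largest increase under the naming rule was uc007ytx.1, with a length of 599 bases recovered from its RPKM steps. Its RPKM was 16 in 37-4, 1271 in 37-7, 2009 in 37-8, 691 in 39-5, 28 in 39-9 and 84.4 in 44, and it was listed at 0 in all 6 controls. The groups did not overlap, but the tumours spanned from 85 reads in 37-4 to 10942 in 37-8. These 2 tumours share the number 37. The difference of means on the log2(RPKM + 1) scale was 7.68 (SE 0.83, limma adjusted p = 2.01e-08). With controls at 0 that value depends on the pseudocount and is no fold. Over the alternative settings it lay between 5.45 and 10.98. The limma adjusted p was largest, at 1.33e-04, in the fit of only the 12 libraries. In the main fit the SE pools the spread of all 32 libraries, most of which were at 0.

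The same transcript was near 0 in the other sarcomas. It was listed at 0 in 11 of 13 clear cell sarcomas, with 3.19 as the highest RPKM, and in 6 of 7 osteosarcomas, with 17.3 as the highest. That single osteosarcoma exceeded the lowest tumour, 37-4, so synovial sarcomas and osteosarcomas overlapped. The difference from clear cell sarcoma was 7.47 (SE 0.71, limma adjusted p = 1.24e-09) and from osteosarcoma 7.08 (SE 0.80, limma adjusted p = 5.47e-08). At an adjusted p under 0.05, 3403 of the tested transcripts (22.3%) differed between synovial and clear cell sarcoma and 4179 (27.4%) between synovial sarcoma and osteosarcoma.

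The next increase was that of uc007xlp.2, with a recovered length of 204 bases. Its RPKM was 209 in 37-4, 460 in 37-7, 122.9 in 37-8, 58.2 in 39-5, 226 in 39-9 and 41.7 in 44, and it too was listed at 0 in all 6 controls. The tumours were closer together than for uc007ytx.1 and again shared no value with the controls. The difference on the log2(RPKM + 1) scale was 7.11 (SE 0.71, limma adjusted p = 4.00e-09), with 4.84 to 10.42 over the alternative settings. It was also higher than in clear cell sarcoma, by 5.72 (SE 0.61, limma adjusted p = 1.18e-08), and than in osteosarcoma, by 6.66 (SE 0.68, limma adjusted p = 7.40e-09). The highest RPKM was 12.2 among clear cell sarcomas and 7.74 among osteosarcomas, below every synovial sarcoma.

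The largest decrease under the rule was that of uc009rur.1, with a recovered length of 898 bases. Its RPKM in the controls was 393 in Bone3, 423 in Chest1, 421 in Chest2, 605 in Chest3, 385 in Chest4 and 483 in Chest5, a mean of 452 ± 82.5 (SD, n = 6). In the tumours it was 0.503 in 37-4, 3.57 in 37-7, 4.65 in 37-8, 10.4 in 39-5 and 65.5 in 44, and it was listed at 0 in 39-9. The controls were close together, while the tumours spread widely and 44 stood nearest to the controls. The log2 change was -6.33 (SE 1.24, limma adjusted p = 1.47e-04), and -5.61 with the numbers 37 and 39 averaged (limma adjusted p = 0.00789). Against the other sarcomas no difference was called: the change was 0.13 against clear cell sarcoma (SE 1.06, limma adjusted p = 0.945) and 0.37 against osteosarcoma (SE 1.20, limma adjusted p = 0.852). One clear cell sarcoma reached an RPKM of 405, within the range of the controls.

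The second decrease, of uc008qdd.1 with a recovered length of 392 bases, rested on less even controls. Its RPKM was 1315 in Bone3, 313 in Chest1, 300 in Chest2, 37.9 in Chest3, 696 in Chest4 and 181 in Chest5. In the tumours it was 0.288 in 37-4, 3.37 in 37-8, 8.79 in 39-5, 3.04 in 39-9 and 22.2 in 44, and it was listed at 0 in 37-7. The highest tumour, 44, and the lowest control, Chest3, were thus close, though the groups did not overlap. The log2 change was -6.13 (SE 1.41, limma adjusted p = 8.00e-04), and -5.51 with the numbers averaged (limma adjusted p = 0.0219). Against clear cell sarcoma it was -0.36 (SE 1.20, limma adjusted p = 0.857) and against osteosarcoma -3.51 (SE 1.36, limma adjusted p = 0.0521), neither past the threshold.

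**Figure D3:**
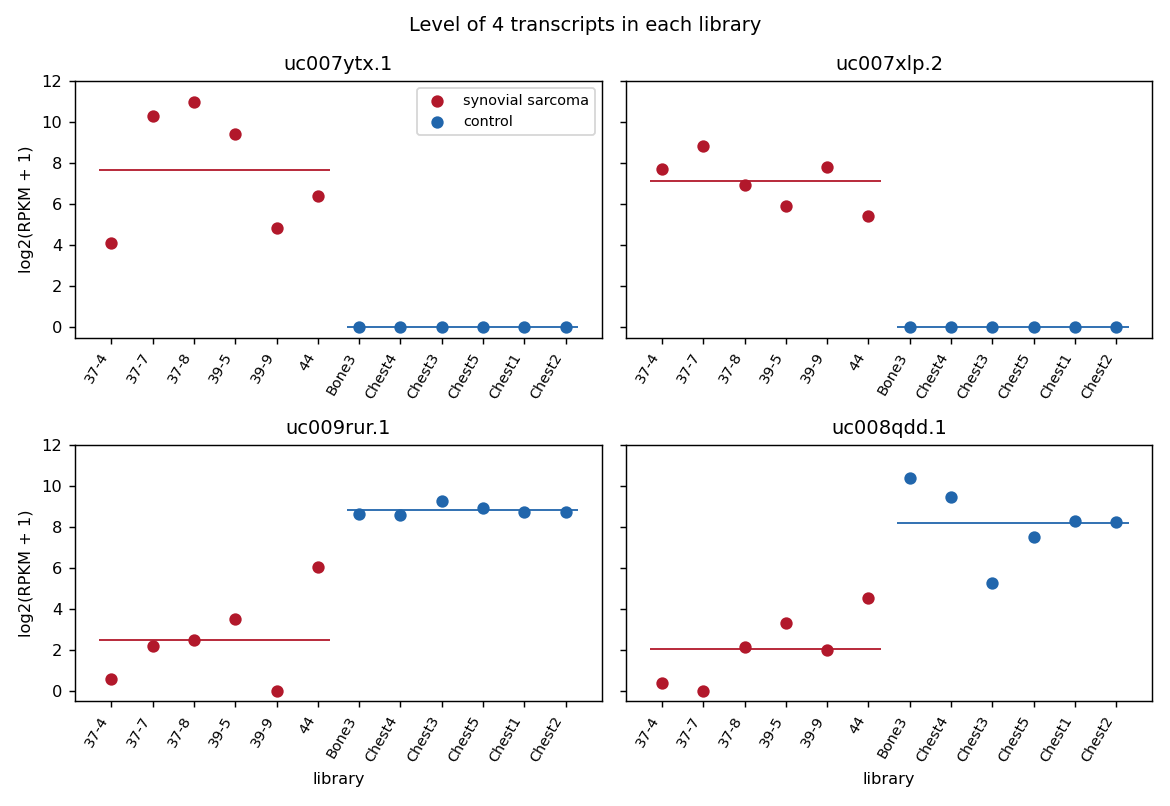
Level of 4 transcripts as log2(RPKM + 1) (y axis) in each of the 6 synovial sarcomas (red) and 6 controls (blue) on the x axis; horizontal lines are group means. uc007ytx.1 and uc007xlp.2 sit at 0 in every control, and uc009rur.1 and uc008qdd.1 are higher in every control than in every tumour, with tumour 44 nearest to the controls in both.

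These 4 were the first of 15 higher and 15 lower transcripts that the naming rule took from 3489 candidates, 3067 higher and 422 lower. The 15 leading increases lay between 6.07 and 7.68 on the log2 scale, with a median SE of 0.63, and 3 of them were listed at 0 in all 6 controls. The 15 leading decreases were smaller and less precise, between 4.30 and 6.33 in size with a median SE of 1.15. All 30 passed the test in the same direction under both other scalings and with the numbers 37 and 39 averaged. In 12 of the 15 leading increases, and in 8 of the 15 leading decreases, tumour 44 was the one nearest to the controls. Over all tested transcripts, too, 44 had the smallest shares of the tumours above and below every control, 37.87% and 9.035%. The counts are thus not particular to the leading transcripts.

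The 15 leading increases and the 15 leading decreases were also set against the other sarcomas. All 15 leading increases were also called higher than in clear cell sarcoma and higher than in osteosarcoma. Of all 15230 tested transcripts, 3403 (22.3%) were called against clear cell sarcoma, 2539 of them higher in synovial sarcoma. Against osteosarcoma 4179 (27.4%) were called, 3313 of them higher in synovial sarcoma. Lower calls were thus the smaller part of both contrasts. Of the 15 leading decreases, none was called lower or higher than in clear cell sarcoma, and 1 was called lower than in osteosarcoma. With few lower calls among all transcripts, and a median SE against control of 1.15 against 0.63 for the increases, these counts set no contrast between the lists. Both lists were picked for their levels in these synovial sarcomas, which form 1 side of each contrast, so the counts describe them and test nothing. These contrasts share the synovial sarcoma libraries, so they are separate values side by side and not independent support.

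The rule had left out transcripts under 200 bases. Without that limit, 11 of the 15 largest decreases and 8 of the 15 largest increases were shorter than 200 bases, the shortest of 3 bases in both lists. The largest decrease of any length was then 12.31 on the log2 scale, and the median SE of the 15 was 1.41. For such a transcript a single read is worth a very large RPKM.

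A further group of transcripts was read in every tumour and listed at 0 in every control. It held 80 transcripts, 78 of which met the filter, and all 78 were called, where 36.5% of all tested transcripts were called higher. These transcripts were picked for a pattern in the same libraries, so the calls describe them and test nothing. The lowest read number among the 6 tumours had a median of 50 over these transcripts and ranged from 8 to 781, and 22 had at least 100 reads in every tumour. Of the 80, 16 were also listed at 0 in all 13 clear cell sarcomas, 26 in all 7 osteosarcomas and 6 in all 20. The reverse, a transcript read in every control and listed at 0 in every tumour, occurred 5 times, with 15 to 35 reads in the lowest control. A listed 0 also occurred beside well read group mates: of 106622 values whose 5 group mates all had at least 20 reads, 453 (0.425%) were at 0. With at least 100 reads in all 5 group mates, 4 values were at 0. Whether such a 0 stands for a low level was not tested.

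The 6 tumours departed from the controls to different degrees. Tumour 39-9 lay above every control in 59.6% of the tested transcripts, 37-7 in 56.6%, 39-5 in 51.2%, 37-4 in 48.8%, 37-8 in 46.5% and 44 in 37.9%. They lay below every control in 9.04% (44) to 13.2% (39-5). A control set against the other 5 controls lay above them in 9.21% (Bone3) to 20.7% (Chest5) and below them in 5.58% (Chest2) to 23% (Chest3). Each tumour thus exceeded the range of the controls upwards more often than any control did. Downwards none did so as often as Bone3, Chest3 or Chest4. A tumour had 6 controls to pass and a control only 5, the easier condition. No library could lie below a control at 0. Median ratio scaling narrowed the upward shares to 23.9% in 44 up to 32.1% in 37-7, against 10.5% to 22.9% in the controls. It raised the downward shares to 18.1% in 44 up to 25.1% in 39-5, against 9.53% to 20.7% in the controls. Under both scalings 44 had the smallest upward and the smallest downward share of the 6 tumours.

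**Figure D4:**
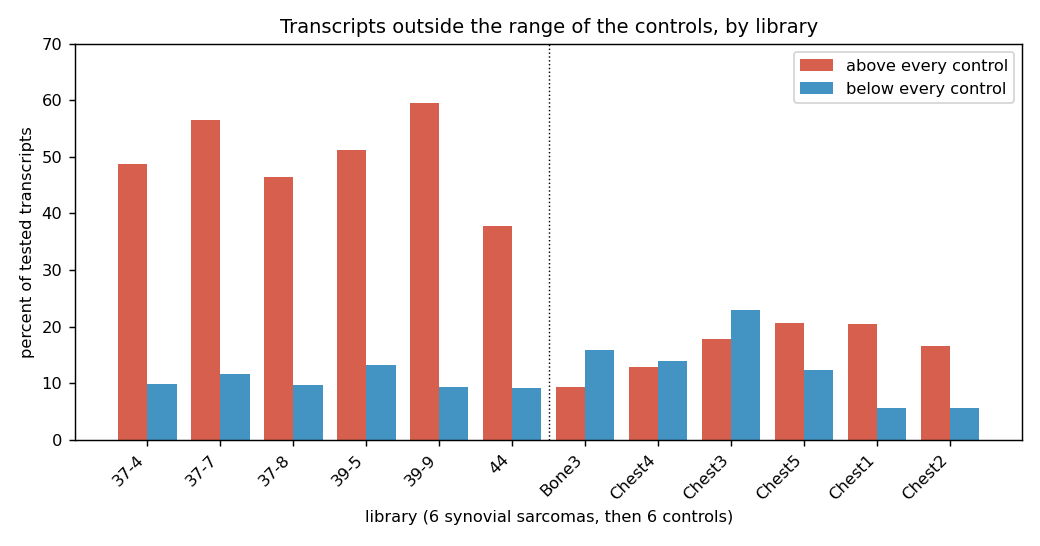
Percent of the 15230 tested transcripts (y axis) in which a library lay above every control (red) or below every control (blue), by library (x axis), on the deposited scale; a control is set against the other 5. The upward shares run from 37.9% in 44 to 59.6% in 39-9 in the tumours and from 9.21% to 20.7% in the controls.

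The rank order of transcripts gave a related picture of the libraries. Over the tested transcripts, Spearman's rho between a tumour and the 6 controls averaged 0.780 for 44, 0.757 for 37-4, 0.742 for 37-8, 0.676 for 39-9, 0.659 for 39-5 and 0.625 for 37-7. Pairs of tumours had a rho of 0.788 to 0.892, pairs of controls 0.788 to 0.929 and pairs of a tumour and a control 0.588 to 0.839. The 4 tumour pairs that share a number had a rho of 0.834 to 0.851 and the other 11 of 0.788 to 0.892, so pairs of one number were not the most alike. These values describe transcripts within libraries, which share a gene set and length effects, and carry no test.

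The most alike tumours were 37-7 and 39-9, with a rho of 0.892. Both lay above all the other 10 libraries in 3789 transcripts, whereas the next tumour pair, 37-7 and 39-5, did so in 1415 and the first control pair, Chest1 and Chest2, in 726. In those transcripts the 2 highest levels of the 12 libraries were in this pair, which does not share a number. The factors of the median ratio scaling were also largest in 37-7 and 39-9, at 1.42 and 1.46, and ran from 0.635 (Bone3) to 1.27 (39-5) in the other 10 libraries. The pair of a tumour and a control with the highest rho was 37-4 and Chest5, at 0.839, where 37-4 and the other 5 controls had 0.720 to 0.765. That place rested on short transcripts. Over the 13594 tested transcripts of at least 100 bases, a limit chosen after seeing the data, 37-4 and Chest5 had 0.813, and the highest such pair was 44 and Chest3 at 0.848. The pair of 37-7 and 39-9 was also the most alike of the tumours with that limit, at 0.934.

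Each tumour was also compared with the calls made without it. The fit was repeated with 1 tumour left out, and the left-out tumour was then set against the controls for the transcripts called from the other 5. Of the higher calls it lay above all 6 controls in 98.4% for 37-7, 97.5% for 39-9, 93.4% for 39-5, 90.1% for 37-8, 88.8% for 37-4 and 74.0% for 44, against 37.9% to 59.6% over all tested transcripts. Of the lower calls it lay below all 6 controls in 84.0% for 37-7, 78.9% for 39-5, 76.5% for 37-8, 69.3% for 37-4, 67.3% for 39-9 and 62.6% for 44, against 9.03% to 13.2% over all tested transcripts. The same 6 controls entered both steps, and for every tumour but 44 a library of the same number stayed in the fit. The comparison is therefore not an independent check. On the side of the control mean given by the other 5 lay 93.8% to 99.3% of the higher and 90.0% to 100% of the lower calls.

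Counts of calls moved with the tumour left out. They were fewest without 37-7, at 5559, and most without 44, at 6828, against 6579 with all 6. Tumours varied slightly more among themselves than controls did: the median SD over tested transcripts was 0.50 on the log2 scale in the tumours and 0.45 in the controls, and it was larger in the tumours for 55.4% of transcripts.

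Treating the tumour libraries of one number as one sample lowered the counts of calls and turned none. With 37 and 39 averaged, 4059 transcripts were called, 3548 higher and 511 lower, and 4054 of them were among the 6579. Calls of at least 2-fold numbered 3540, 3060 higher and 480 lower. Transcripts with no overlap rose in number to 5869, 5053 higher and 816 lower, with fewer values to overlap. Of the 1016 lower calls, 511 passed again. With all 6 tumours kept and a correlation among those of one number estimated at 0.402, 5210 were called, 4495 higher and 715 lower. The averaged fit called 1230 transcripts against clear cell sarcoma and 1934 against osteosarcoma.

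**Figure D5:**
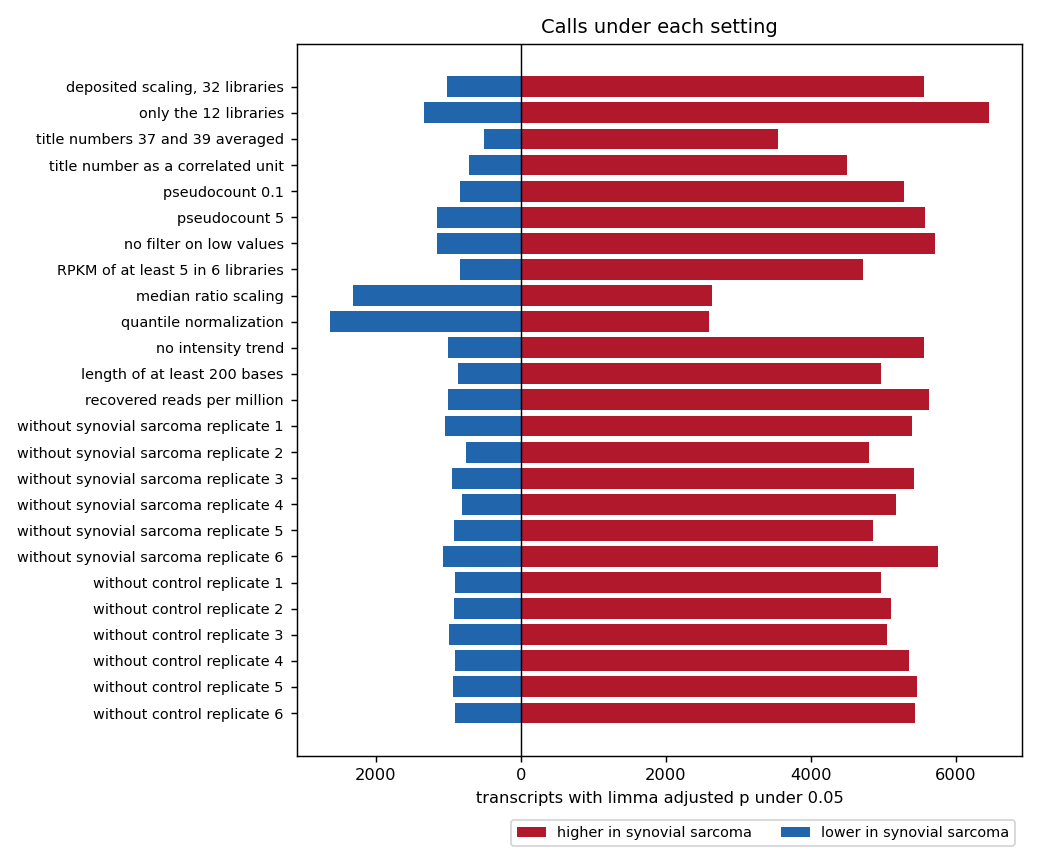
Number of transcripts called at a limma adjusted p under 0.05 (x axis), higher in synovial sarcoma to the right and lower to the left, under each setting (y axis); replicates 1 to 6 are 37-4, 37-7, 37-8, 39-5, 39-9 and 44 for the tumours and Bone3, Chest4, Chest3, Chest5, Chest1 and Chest2 for the controls. Higher calls outnumber lower ones by 5563 to 1016 on the deposited scale, by 2639 to 2323 with median ratio scaling, and not after quantile normalization, with 2592 to 2640.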

How the data were processed

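RNA was purified with a Qiagen kit and DNase and made into Illumina TruSeq libraries, per the labels' protocols. Per the submitters' processing notes, bases were called with CASAVA 1.8.2 and reads aligned with Novoalign 2.07.03, on mm9. The counting program and annotation were not given in the sources used here. All RPKM values were deposited by the authors in 1 table with 1 column per library, and 0 columns were left over. A table of human tumour arrays was not used here.

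limma 3.58.1 in R 4.3.3 (eBayes with an intensity trend, two-sided) was fitted to log2(RPKM + 1) in 1 model of 4 tissue types over all 32 libraries, for transcripts whose RPKM reached 1 in 6 or more libraries, and p-values were adjusted after Benjamini and Hochberg and called under 0.05. The pseudocount of 1 makes changes at low RPKM look smaller than they are. The labels give no covariate for the synovial sarcomas and controls, and the differing Cre labels of the other sarcomas were not modelled. Whole reads and lengths were recovered from RPKM ratios for 16359 of 16398 transcripts that were above 0 in 6 or more libraries; 99.95% of the lengths were whole within 0.02 bases, some as short as 2 bases. Shares and listed zeros carry counting error at that depth. Values per library were compared by exact permutation tests in Python 3.11.15 with scipy 1.17.1. The fit and the read recovery were tested on simulated data. There the fit found 30 of 96 2-fold changes and 92 of 97 4-fold changes, with 4 false calls among 14697 transcripts. A transcript not called can thus still have changed 2-fold. The simulated data had 1 fixed spread, few changed transcripts and no shift between libraries, unlike the real ones.

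Named transcripts were the 15 largest changes each way among calls whose higher group averaged an RPKM of 5 or more, with no overlap between the groups and a length of at least 200 bases, of which the first 2 each way are printed. The gene names and 26 gene lists of the plan were not analysed here, since no table paired the identifiers with names, and no sequence is printed. Alternatives covered the libraries fitted, title numbers, pseudocounts of 0.1 and 5, filters, scaling, trend, length, recovered reads per library depth (pseudocount 0.5) and each library left out. The comparison, the lists and the naming rule were chosen with earlier results of these data known.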

Additional observations from a re-analysis of the deposited data

Results flagged for a closer look

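For the 2 leading increases the change against control differed between tumour types in limma's test of the difference itself. The change of uc007ytx.1 was larger in synovial sarcoma than in clear cell sarcoma by 7.47 and than in osteosarcoma by 7.08 on the log2(RPKM + 1) scale. The change of uc007xlp.2 was larger than in clear cell sarcoma by 5.72 and than in osteosarcoma by 6.66. The controls cancel out of these differences, which equal the direct comparisons of the tumour types. Both transcripts were picked for their high levels in these synovial sarcomas, so the differences are a description. No library stood apart from its group under Dixon's criterion in the 14 groups of values examined.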

How the results depend on the processing

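Averaging the libraries of the numbers 37 and 39 gave 4059 calls, 3548 higher and 511 lower, 1230 calls against clear cell sarcoma and 1934 against osteosarcoma. With it the difference in transcripts above 0 per library was 1134 and no longer passed the threshold (exact permutation p = 0.0595). Keeping these libraries with an estimated correlation gave 2004 calls against clear cell sarcoma. Median ratio scaling gave 2639 higher and 2323 lower calls, and quantile normalization 2592 higher and 2640 lower. With a pseudocount of 5, calls higher by at least 2-fold numbered 2821, against 4253. Apart from averaging, no setting moved the count of all calls by more than 1.5 times: only the 12 libraries gave 7795 calls, pseudocounts of 0.1 and 5 gave 6126 and 6728, no filter gave 6865 of 19791 and an RPKM of at least 5 gave 5557 of 11659. Dropping each library in turn gave 5559 to 6828 calls. The 4 named transcripts kept their direction and stayed past the threshold in the 48 values with a library left out and the 48 under other settings. No paired analysis was possible because the titles give the tumours and the controls no shared replicate numbers. The cause of these shifts was not tested. Fewer values enter the averaged fit.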

Other observations

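By recovered reads, the transcripts called higher took 29.8% (44) to 59.8% (37-7) of a tumour's reads and 11.6% (Bone3) to 16% (Chest1) of a control's. Those called lower took 3.49% (37-7) to 7.43% (44) of a tumour's reads and 14.5% to 17.3% of a control's. Both sets were chosen on these libraries, so the values are a description of their weight. The share of the higher calls was largest in 37-7 (59.8%), 39-9 (53.4%) and 39-5 (50.3%), the 3 tumours in which the most abundant transcripts of the controls took the smallest shares.

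In 311 transcripts the groups did not overlap and yet no call was made. At an unadjusted p under 0.05, 7707 transcripts differed.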
